A study of Mus musculus with 6 samples.

Results

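The mRNAs of the proteins that make up small nucleolar ribonucleoproteins (snoRNPs) were followed after knockdown of Aldoa, the gene of a glycolytic enzyme, in murine NIH/3T3 cells, an established fibroblast line. The 10 genes were taken from the table of 18001 genes by their symbols, and all 10 were present. They comprised 4 core proteins of box C/D snoRNPs (Fbl, Nop56, Nop58 and Nhp2l1), 4 core proteins of box H/ACA snoRNPs (Dkc1, Nhp2, Nop10 and Gar1) and 2 associated factors (Nolc1 and Naf1). RNA-sequencing of poly(A) RNA was available 48 h after transfection for 3 libraries with non-targeting siRNAs (siCTR) and 3 libraries with siRNAs against Aldoa (siALDOA), which the study calls biological replicates. All 6 libraries came from the same cell line, grown in DMEM with 10% FCS and Pen-Strep, and no group was without siRNA. Values are CPM (reads of a gene scaled to the effective size of its library). Per library, 3692341 to 3771129 reads were recovered over the genes of the table, and 1 read was worth 0.262 to 0.274 CPM. The values are shares of a library, hence a loss of cells and a lower RNA content per cell cannot be told apart from them.

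snoRNPs are enzymes that modify ribosomal RNA in the nucleolus, each guided to its target by the base pairing of a small nucleolar RNA. Box C/D particles add methyl groups to the ribose, with fibrillarin (Fbl) as the methyltransferase, whereas box H/ACA particles turn uridine into pseudouridine, with dyskerin (Dkc1) as the synthase. A few box C/D particles, among them U3, are needed for cleavage of the rRNA precursor rather than for its modification, and the box H/ACA proteins are also part of telomerase. Many genes of this machinery are known as targets of the transcription factor MYC.

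In brief, all 10 mRNAs had lower fitted levels in siALDOA, and 8 of the 10 passed the test, with decreases of 0.18 to 0.54 on the log2 scale. Over all 18001 genes, 9078 had a fitted change below 0 and 10.0% were called lower. Nop56 had the greatest fitted decrease (log2 change -0.54), whereas Fbl itself and Nop10 did not pass. Fbl shares near-identical sequence with another expressed gene, so its level and change are uncertain. The mean log2 changes of the box C/D and the box H/ACA core mRNAs were -0.34 and -0.30, a difference given without a test.

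Several members carry snoRNA genes inside them, so that one transcript can supply a guide and a protein of the particle. In the GENCODE annotation of GRCm38 (the build mm10), snoRNA genes on the same strand lay inside 3 of the 10 members, compared with 248 of the 13619 protein-coding genes of the table (1.82%). Nop56 (chr2:130274430-130279313, + strand) held 5, Nop58 (chr1:59684971-59719044, + strand) held 4 and Dkc1 (chrX:75095854-75109777, + strand) held 1. By their letters, 7 of the 10 held box C (TGATG) and box D (CTGA) and Gm24451 an ACA box. Of these, 6 from Nop56 and Nop58 are shown with the boxes in capitals, because these elements are where the proteins described here assemble.
Snord110, in Nop56, chr2:130275506-130275573: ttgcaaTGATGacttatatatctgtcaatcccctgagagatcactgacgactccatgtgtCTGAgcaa
Gm24451, in Nop56, chr2:130276237-130276369: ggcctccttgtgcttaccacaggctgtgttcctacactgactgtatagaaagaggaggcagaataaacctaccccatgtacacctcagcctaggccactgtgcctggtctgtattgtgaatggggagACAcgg
Gm23650, in Nop56, chr2:130277697-130277766: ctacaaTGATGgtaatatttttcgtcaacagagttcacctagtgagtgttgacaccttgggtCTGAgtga
Snord70, in Nop58, chr1:59691934-59692020: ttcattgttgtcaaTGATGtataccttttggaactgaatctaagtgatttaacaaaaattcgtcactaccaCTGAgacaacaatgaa
Gm26293, in Nop58, chr1:59692509-59692592: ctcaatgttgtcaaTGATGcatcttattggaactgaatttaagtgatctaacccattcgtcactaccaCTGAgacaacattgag
Snord11, in Nop58, chr1:59704790-59704873: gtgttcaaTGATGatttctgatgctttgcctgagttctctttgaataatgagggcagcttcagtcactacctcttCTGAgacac
Gm23187 of Nop56 and Gm26287 of Nop58 also held box C and box D. Snord57 of Nop56 held CTGA near its end but not TGATG, and no box was found by these letters in Gm25520 of Dkc1. Of the 10, 5 overlap annotated exons of their hosts (Gm24451, Gm23187, Gm23650, Snord57 and Gm26293). None of the 10 was among the 18001 genes, thus only the host mRNAs were measured.

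Aldoa was depleted in every siALDOA library, with 62.9, 69.2 and 72.0 CPM compared with 522, 536 and 545 CPM in siCTR. Among the fibroblast markers, Col1a2 had 3516 to 5079 CPM and Vim 3149 to 3779 CPM, and 7 of 8 markers changed (4 lower, 3 higher). Of 10 markers of other cell types, 7 were in the table, and their summed level was 15.3 to 17.5 CPM in siCTR and 5.76 to 9.18 CPM in siALDOA. Epcam, Myod1 and Adipoq were not among the genes of the table. Replicate 3 of each group stood somewhat apart, since read counts differed from replicates 1 and 2 by a chi-square of 1.97 to 3.03 per degree of freedom, compared with 1.11 to 1.12 between replicates 1 and 2. Counting error alone would give 1, so replicates 1 and 2 of each group differed by little more than that. The SE and p-values given below rest on this spread between libraries, and how separately replicates 1 and 2 were grown is not stated.

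Levels of the members were first compared per length of the principal transcript, since longer mRNAs give more reads. Nop58 had the highest level in siCTR with 211 ± 8.14 CPM per kilobase (SD, n = 3), followed by Nhp2 with 188 ± 8.20 and Nop56 with 166 ± 7.68. Dkc1 (81.1 ± 2.06) and Nolc1 (80.9 ± 2.96) were not separated from each other in siCTR, and neither were Nop10 (70.6 ± 5.44) and Gar1 (65.4 ± 4.33). Fbl (47.7 ± 0.898) and Nhp2l1 (45.4 ± 2.31) also overlapped, and Naf1 was the lowest with 34.8 ± 1.83. Within the box C/D class the methyltransferase was therefore listed at a lower level per length than the scaffold proteins Nop56 and Nop58, and Fbl, Nhp2l1 and Nop56 have near-identical copies elsewhere in the genome, described further down.

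Nop56 showed the greatest decrease of the 10. NOP56 is, together with NOP58, the scaffold that spans the box C/D particle. The siCTR libraries had 305, 301 and 328 CPM, and the siALDOA libraries had 204, 222 and 214 CPM. The groups were far apart, and the mean of siALDOA was 68.5% of that of siCTR. On the log2(CPM + 1) scale, Nop56 fell by 0.54 ± 0.047 (SE), with an adjusted p of 7.61e-09 in limma over all genes.

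Nop58, the gene of the second scaffold protein, had 349, 377 and 360.3 CPM in siCTR and 291, 281 and 287 CPM in siALDOA. All siALDOA libraries were below all siCTR libraries, and the log2 change was -0.34 ± 0.041 (SE, adjusted p = 1.8e-06, limma). Nhp2l1 encodes the protein that first binds the kink-turn of box C/D snoRNAs and is also a component of the U4 snRNP of the spliceosome. Its levels were 99.7, 90.8 and 92.1 CPM in siCTR and 72.1, 82.3 and 68.6 CPM in siALDOA. The groups did not overlap, and Nhp2l1 fell by 0.34 ± 0.072 (SE, adjusted p = 0.00113, limma).

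Fbl behaved differently. With 56.2, 58.3 and 56.9 CPM in siCTR and 54.5, 47.0 and 54.7 CPM in siALDOA, it was lower in all 3 siALDOA libraries, but 2 of these came close to the controls. The log2 change was -0.13 with a 95% interval from -0.30 to 0.03 (adjusted p = 0.277, limma). A decrease as large as that of Nop56 (interval -0.64 to -0.45) lies outside this interval, whereas no change lies inside it. The interval of Fbl overlaps those of Nop58 (-0.42 to -0.25) and Nhp2l1 (-0.49 to -0.19), and a difference from these 2 genes was not tested. The Fbl interval does not cover an exchange of reads with the gene Tulp4, which shares sequence with Fbl (described further down) and was not tested for this. The value rested in part on siALDOA replicate 2, as the log2 change was -0.06 without this library. An endogenous Fbl change is of interest because the study used a stretch of the Fbl promoter to drive a fluorescent reporter of ribosome biogenesis. With siRNA against Aldoa, the paper reports a substantial drop of this reporter and a lesser drop of its Rpl18 reporter. That was protein fluorescence 3 days after transfection, whereas the values here are mRNA at 48 h. The Fbl reporter was a green protein, which the paper proposes is less stable than the red one of Rpl18. When the paper exchanged the promoters between the colours, most of its candidate CRISPR guides still lowered green more than red. It concluded that its screen could not find regulators specific to either class of genes. The reverse primer used for the Fbl promoter is shown without its first 9 bases, which were taken to be a cloning tail. The rest begins with the reverse complement of ATG (capitals).
Fbl_R: CATtactgcgttctggtcgc
Its reverse complement was found in 4 of the 6 annotated Fbl transcripts. The companion reporter gene Rpl18 had 172, 176 and 187 CPM in siCTR and 178, 173 and 191 CPM in siALDOA.

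**Figure D1:**
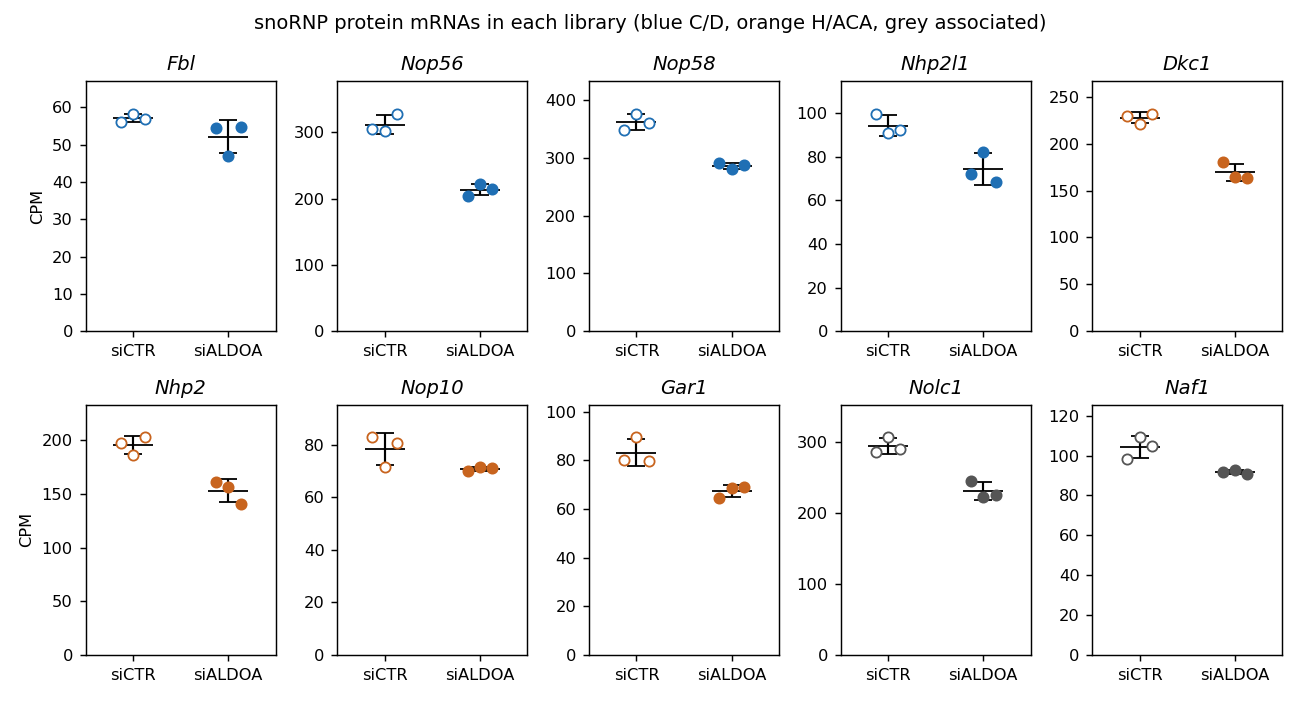
CPM of each member (vertical axes from 0) in the 3 siCTR libraries (open points) and the 3 siALDOA libraries (filled points), with the mean as a horizontal line and the SD as the bar. Nop56 drops from 301 to 328 CPM to 204 to 222 CPM, whereas in Fbl and Nop10 the groups nearly touch.

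Dkc1 changed most in the box H/ACA class. Dyskerin is the pseudouridine synthase of these particles, and loss of its function causes dyskeratosis congenita. Dkc1 had 229.5, 221 and 232 CPM in siCTR and 180.3, 165 and 163 CPM in siALDOA, a clear separation. It fell by 0.42 ± 0.050 on the log2 scale (SE, adjusted p = 8.76e-07, limma) to 74.5% of the control mean.

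Nhp2 encodes the RNA-binding core protein related to NHP2L1, and had 198, 186 and 203 CPM in siCTR and 161, 157 and 141 CPM in siALDOA. Again all siALDOA values were lower (log2 change -0.35 ± 0.055, adjusted p = 3.94e-05, limma). Gar1, the subunit that helps release the modified rRNA, had 80.3, 89.5 and 79.6 CPM in siCTR and 64.5, 68.7 and 69.1 CPM in siALDOA, without overlap. Its log2 change was -0.30 ± 0.069 (SE, adjusted p = 0.00297, limma).

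Nop10, a small protein that joins dyskerin to NHP2, had 82.7, 71.4 and 80.7 CPM in siCTR and 69.9, 71.4 and 71.0 CPM in siALDOA. Replicate 2 of siCTR was level with the siALDOA libraries, so the separation between the groups was marginal. The log2 change of -0.14 (95% interval -0.29 to 0.00) did not pass (adjusted p = 0.175, limma), and it was -0.21 without siCTR replicate 2 (adjusted p = 0.0597).

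Of the associated factors, Nolc1 encodes a chaperone of both particle classes that shuttles between the nucleolus and Cajal bodies. It had 286, 306 and 290.0 CPM in siCTR and 245, 223 and 225 CPM in siALDOA and fell by 0.35 ± 0.047 on the log2 scale (SE, adjusted p = 6.13e-06, limma). Naf1 encodes an assembly factor that occupies the place of GAR1 in immature box H/ACA particles. Its levels were 98.3, 109 and 105 CPM in siCTR and 91.8, 92.7 and 90.6 CPM in siALDOA. These values did not overlap, but the decrease was small (-0.18 ± 0.061, adjusted p = 0.0358, limma). The Naf1 call was lost without siCTR replicate 2 (adjusted p = 0.152) or 3 (0.101) and without siALDOA replicate 1 (0.089), 2 (0.0791) or 3 (0.102), and with DESeq2 (0.159).

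**Figure D2:**
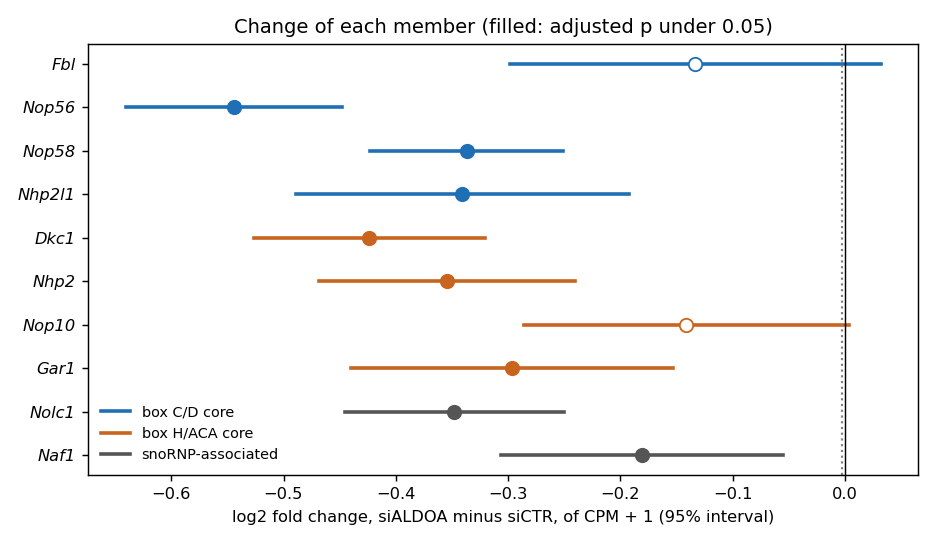
Log2 fold change of CPM + 1, siALDOA minus siCTR, of each member from limma (horizontal axis), with the 95% interval as a line and filled points for an adjusted p under 0.05. Nop56 is the lowest at -0.54, the intervals of Fbl and Nop10 include 0, and the dotted line is the median of all genes.

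In total, 8 of 10 members were called lower and 0 higher at an adjusted p under 0.05 (limma). Over all 18001 genes, 10.0% were called lower and 10.4% higher, and after removal of genes whose mean CPM was not above the lower quartile these shares were 14.4% and 14.7%. At an unadjusted p under 0.05, 8 members were lower and 0 higher, and edgeR and DESeq2 also called 0 members higher. In all 10 members the siALDOA libraries lay below the siCTR libraries, which was the case for 17.1% of all genes, and 16.7% lay above. In Nop10 this rested on 71.40 CPM (261 reads) in siCTR replicate 2 and 71.36 CPM (267 reads) in siALDOA replicate 2. The order of these 2 libraries thus depended on their scaling. The shares cover genes of every level, whereas the members lay at percentiles 74.3 to 97.5 of mean CPM. The median log2 change of the members was -0.34, compared with 0.00 over all genes. The number called depended on the number of libraries and on how the spread was estimated. Without the replicates numbered 1, 2 or 3 of both groups, which leaves 2 libraries per group, 5, 6 and 3 members were called. Without limma's mean-variance trend 4 were called, namely Nop56, Nop58, Dkc1 and Nolc1. The fitted change of each of the 10 genes was below 0 in the 3 fits without a replicate number.

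**Figure D3:**
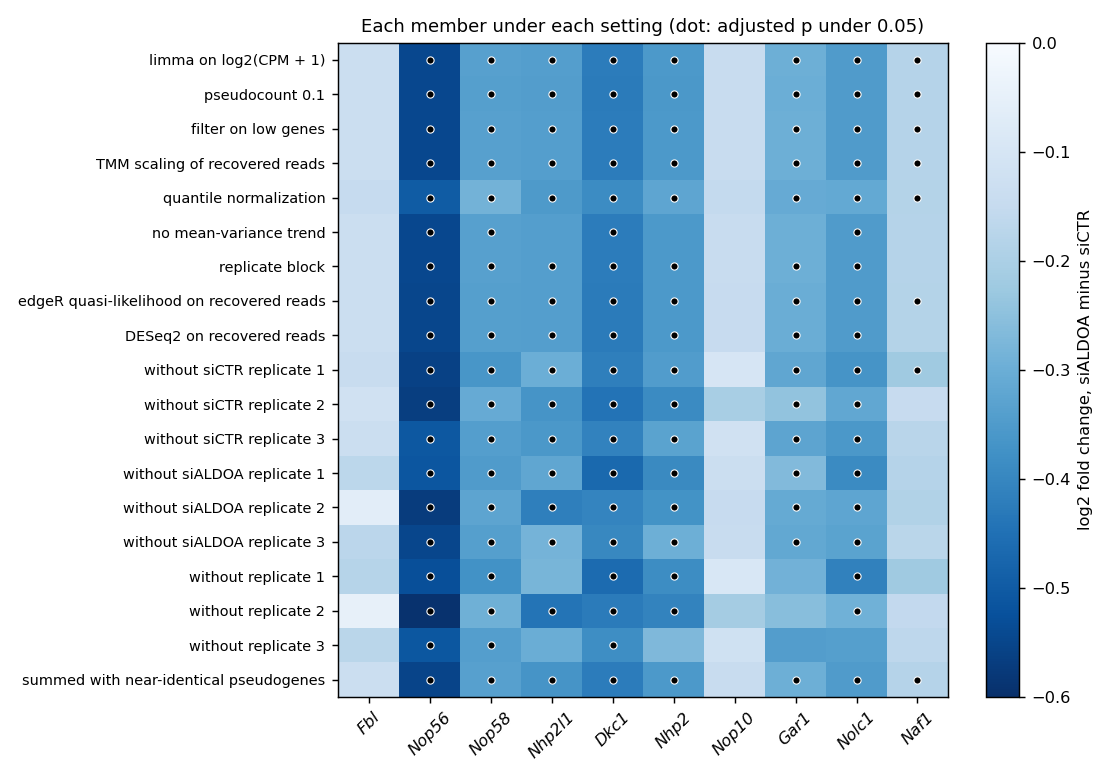
Fitted log2 fold change (colour) of each member (columns) under each way of processing the values (rows), with a dot where the adjusted p was under 0.05. Nop56, Nop58 and Dkc1 carry a dot in every row, Fbl and Nop10 in none, and no value is above 0.

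Next, the 2 classes of particles were compared. The summed level of the 4 box C/D core mRNAs was 825 ± 13.9 CPM in siCTR and 626 ± 5.46 CPM in siALDOA (SD, n = 3), that is 75.9% of control. For the 4 box H/ACA core mRNAs it was 585 ± 14.5 CPM and 461 ± 15.7 CPM, or 78.8% of control. In each class 3 of 4 genes were called lower, compared with 10.0% of all genes, and the median log2 changes were -0.34 and -0.33.

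The mean log2(CPM + 1) of the box C/D genes exceeded that of the box H/ACA genes by 0.25, 0.30 and 0.26 in the siCTR libraries and by 0.21, 0.23 and 0.26 in the siALDOA libraries. These values overlapped. Box C/D minus box H/ACA was 0.27 ± 0.027 in siCTR and 0.23 ± 0.025 in siALDOA (SD, n = 3), a difference of -0.03 given as a description. With Naf1 counted as a box H/ACA protein the difference was -0.06, and without Nhp2l1 it remained -0.03.

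Single pairs of members were then compared within each library, since a ratio does not depend on how libraries are scaled. The ratio of Nop56 to Nop58, which encode paralogous scaffold proteins, was 0.874, 0.800 and 0.910 in the siCTR libraries. In the siALDOA libraries it was 0.703, 0.788 and 0.746. All 3 siALDOA ratios were lower, although siCTR replicate 2 came close to siALDOA replicate 2. The log2 ratio changed by -0.21 (exact permutation test, two-sided, p = 0.1, n = 3 per group).

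The ratio of the catalytic subunits Fbl and Dkc1 moved the other way. It was 0.245, 0.264 and 0.245 in siCTR and 0.302, 0.285 and 0.335 in siALDOA, without overlap. The log2 ratio increased by 0.29 (exact permutation test, two-sided, p = 0.1, n = 3 per group). The counted level of Fbl was thus lowered less than that of Dkc1 in these libraries. Nhp2 and Nhp2l1 encode proteins of the same fold family, one in each class, and their ratio was 1.99, 2.05 and 2.2 in siCTR and 2.24, 1.90 and 2.06 in siALDOA. The groups overlapped, and the log2 ratio differed by -0.01 (exact permutation test, p = 1). Since 3 libraries against 3 cannot give a p below 0.1, none of the 3 ratios could pass the threshold, and adjusted over the 3 the values were 0.15, 0.15 and 1.

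**Figure D4:**
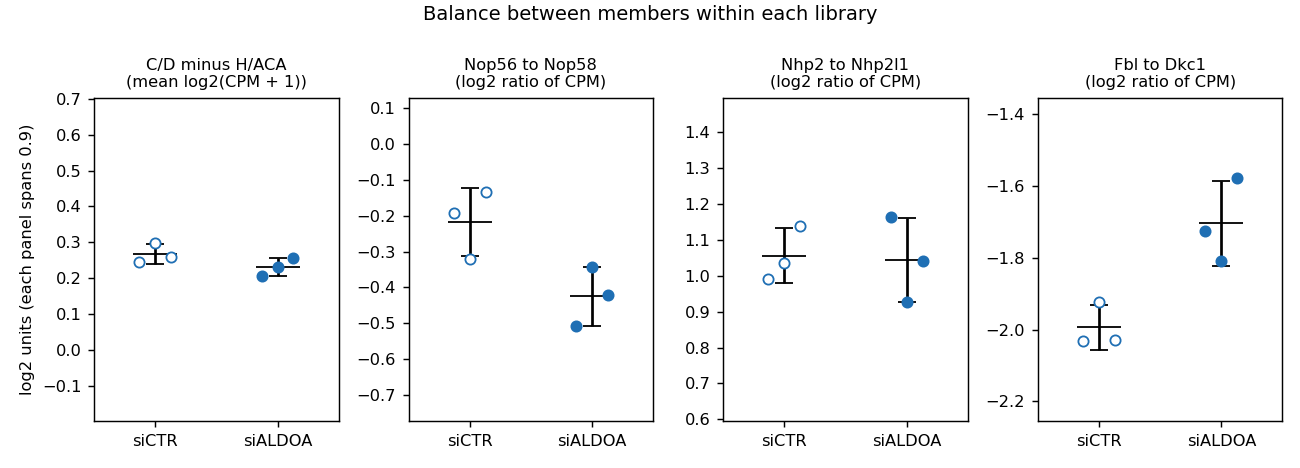
Balance between members within each library on a log2 scale (vertical axes, each spanning 0.9 units), for siCTR (open) and siALDOA (filled), with mean and SD. The class difference changes by -0.03, Nop56 to Nop58 by -0.21 and Fbl to Dkc1 by 0.29, and Nhp2 to Nhp2l1 overlaps.

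Because short reads of a gene and of its processed pseudogenes cannot always be assigned, transcripts at least 90% identical over at least 200 bases were searched. For Nop56, 3 such pseudogenes were in the table (Gm9432, Gm1947 and Gm27219), with a summed level of 74.3 to 91.5 CPM in siCTR and 53.7 to 57.5 CPM in siALDOA. For Nhp2l1, there were also 3 (Gm5616, Gm8741 and Gm8696), which together had 69.5 to 80.7 CPM in siCTR and 53.7 to 56.7 CPM in siALDOA. The pseudogene reads thus amounted to 22.7% to 30.0% of those of Nop56 and 68.8% to 87.6% of those of Nhp2l1, and both sums were lower in siALDOA without overlap. With these reads added, Nop56 changed by -0.55 and Nhp2l1 by -0.37 on the log2 scale (adjusted p = 6.65e-10 and 2.7e-05, limma), an alternative chosen after seeing the data.

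Fbl shares sequence with another expressed gene. A stretch of 690 of the 1197 bases of its principal transcript is 99.6% identical, in antisense, to a transcript of Tulp4 (chr17:6106437-6251128), inside which the Fbl pseudogene Gm5812 lies (chr17:6121208-6122164, 96.9% identical over 984 bases). Tulp4 had 416, 403 and 404 CPM in siCTR and 515, 542 and 521 CPM in siALDOA, and it rose by 0.37 ± 0.037 (SE, adjusted p = 1.01e-07, limma). How many reads of the 2 genes were exchanged was not tested, so the level and the change of Fbl are uncertain. Exons of Dkc1, Nhp2 and Nop56 overlap those of Mpp1, Rmnd5b and Idh3b on the other strand by 45, 44 and 5 bases. The libraries were made with a directional kit, which keeps the strand, but whether counting used it is not given in the sources used here.

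The windows around the start sites of the members (250 bases before to 50 after, RefSeq on GRCm38.p6) were then searched on both strands for motifs of factors known for ribosome biogenesis or housekeeping promoters. Windows were found for 8 of the 10 genes, not for Fbl and Naf1. The MYC-binding E-box CACGTG was in 0 of 8 windows and in 7.15% of all 32851 windows, which says only that these letters are not in this stretch. The ETS motif CCGGAAG was in 4 of 8 (Nhp2l1, Nhp2, Gar1 and Nolc1) compared with 8.86% of all windows. CCAAT was in 4 of 8 (37.4% of all) and the GC box CCGCCC in 5 of 8 (35.7% of all). The windows of Nop56, the most reduced member, of Nhp2, which holds all 3 motifs, and of Nop10, which did not pass the test, are shown with these motifs in capitals on either strand.
Nop56, chr2:130274162-130274461, + strand: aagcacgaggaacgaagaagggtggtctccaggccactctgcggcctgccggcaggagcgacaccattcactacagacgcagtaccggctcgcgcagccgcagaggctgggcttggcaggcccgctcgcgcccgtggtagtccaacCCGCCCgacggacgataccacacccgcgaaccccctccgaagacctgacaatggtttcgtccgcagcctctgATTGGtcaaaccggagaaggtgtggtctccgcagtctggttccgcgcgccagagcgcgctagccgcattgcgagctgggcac
Nhp2, chr11:51619523-51619822, + strand: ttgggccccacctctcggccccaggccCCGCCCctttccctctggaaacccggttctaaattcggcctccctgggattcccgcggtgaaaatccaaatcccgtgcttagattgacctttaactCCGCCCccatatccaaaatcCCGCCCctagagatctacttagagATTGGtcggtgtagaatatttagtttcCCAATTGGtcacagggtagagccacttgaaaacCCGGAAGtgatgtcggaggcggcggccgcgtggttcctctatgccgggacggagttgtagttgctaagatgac
Nop10, chr2:112261676-112261975, + strand: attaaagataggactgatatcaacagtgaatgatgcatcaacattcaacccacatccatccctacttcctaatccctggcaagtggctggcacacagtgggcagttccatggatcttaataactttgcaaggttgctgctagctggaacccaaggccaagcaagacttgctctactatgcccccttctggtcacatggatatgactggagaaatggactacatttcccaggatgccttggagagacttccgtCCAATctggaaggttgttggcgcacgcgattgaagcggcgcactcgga
In Nhp2, CCAAT and its complement overlap by their ends. CCAAT was in the windows of Nop10, Nop56, Dkc1 and Nhp2. In Nop10 and Dkc1 it lies within the 50 bases after the start, and in Nop56 and Nhp2 before the start. Myc itself had 168, 165 and 177 CPM in siCTR and 138, 130.4 and 148 CPM in siALDOA (log2 change -0.29 ± 0.055, adjusted p = 0.000404, limma), and whether this bears on the members was not tested.

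Finally, 5 lists of genes that work beside the snoRNP proteins were examined, 58 genes of which 53 were in the table. Of these, 11 were called lower and 2 higher (limma), 20.8% and 3.77% of the 53, compared with 10.0% and 10.4% of all genes (14.4% and 14.7% after the filter on low genes). The median log2 change was -0.12. The counts per list are small and are given as a description beside these shares. With DESeq2, without siCTR replicate 1 or without siALDOA replicate 2, 6 were called lower, and without the mean-variance trend 2.

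Among 12 genes listed as snoRNP assembly and related factors, 3 were lower and 0 higher, with a median of -0.15. Tcof1, whose product treacle links pre-rRNA transcription to modification, had 191, 197 and 179.6 CPM in siCTR and 144, 134 and 136 CPM in siALDOA (log2 change -0.45, adjusted p = 7.18e-07, limma). Ruvbl2, an ATPase of the assembly complex, fell by 0.23 (adjusted p = 0.00581), and Shq1, the chaperone of dyskerin, by 0.29 (adjusted p = 0.047). The Shq1 call was lost in 5 of the 6 fits without 1 library, all but that without siCTR replicate 3 (adjusted p = 0.0662 to 0.235). The other 9 genes of this list did not pass, including Tgs1 (0.15, adjusted p = 0.11) and Coil (0.09, adjusted p = 0.644), the gene of the Cajal body protein coilin.

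Of 6 partners of the U3 snoRNP, 3 were lower and 1 higher, with a median of -0.12, and the other 2 did not pass. Rrp9, a U3-specific protein, had 61.9, 58.5 and 49.7 CPM in siCTR and 39.9, 39.8 and 42.9 CPM in siALDOA (log2 change -0.46, adjusted p = 0.000509, limma). Nop14 and Mphosph10 were lower by -0.37 and -0.27, whereas Imp4, which binds the same U3 complex as MPHOSPH10, was higher. Imp4 had 49.9, 51.4 and 50.8 CPM in siCTR and 66.1, 61.2 and 66.5 CPM in siALDOA (log2 change 0.34, adjusted p = 0.00146). The Mphosph10 call was lost without siCTR replicate 1 (adjusted p = 0.079) or 2 (0.057) and without siALDOA replicate 2 (0.095).

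Of 10 rRNA-modifying enzymes that are not part of the core snoRNPs, 3 were lower and 0 higher, with a median of -0.19. These were the acetyltransferase Nat10, which box C/D snoRNAs are known to assist (-0.22, adjusted p = 0.0161), the pseudouridine methyltransferase Emg1 (-0.19, adjusted p = 0.0481) and the cytosine methyltransferase Nop2 (-0.17, adjusted p = 0.0285, limma). All 10 fitted changes were below 0, as were those of 9078 of all 18001 genes. The 3 calls depended on single libraries. Nat10 was lost without siCTR replicate 1 or 3 or siALDOA replicate 2 or 3 (adjusted p = 0.0503 to 0.106), Emg1 in every fit without 1 library but that without siALDOA replicate 1 (0.0885 to 0.216), and Nop2 without siCTR replicate 1 or 3 or siALDOA replicate 1 or 2 (0.0674 to 0.178).

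Of 12 stand-alone pseudouridine synthases, which recognize their substrates without guide RNA, 0 were called lower or higher by limma, and their median was -0.11. The range went from -0.41 in Pus1, at 3.47 to 7.67 CPM, to 0.03 in Pus10. Of the 12 fitted changes, 10 were below 0, as were those of 9078 of all 18001 genes. Low counts limit what can be called in this list. The SE was 0.27 in Pus3 (0 to 3 reads per library) and 0.30 in Rpusd3 (2 to 8 reads), compared with 0.070 in Pus7. Whether this list differs from the box H/ACA proteins was not tested.

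Of the 13 measured host genes without a protein, which carry snoRNAs in introns, 2 were lower and 1 higher (15.4% and 7.69%, median 0.10), shares near those of all genes. Snhg1 had 83.5, 85.3 and 84.7 CPM in siCTR and 62.6, 66.3 and 77.0 CPM in siALDOA (log2 change -0.30, adjusted p = 0.00432, limma), and the call was narrowly lost without siALDOA replicate 1 (adjusted p = 0.0539). Gas5, the host of many box C/D snoRNAs, fell by 0.25 (adjusted p = 0.00421). Snhg18 had 17.5, 15.0 and 15.6 CPM in siCTR and 27.5, 22.5 and 26.7 CPM in siALDOA (log2 change 0.64, adjusted p = 0.000864).

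**Figure D5:**
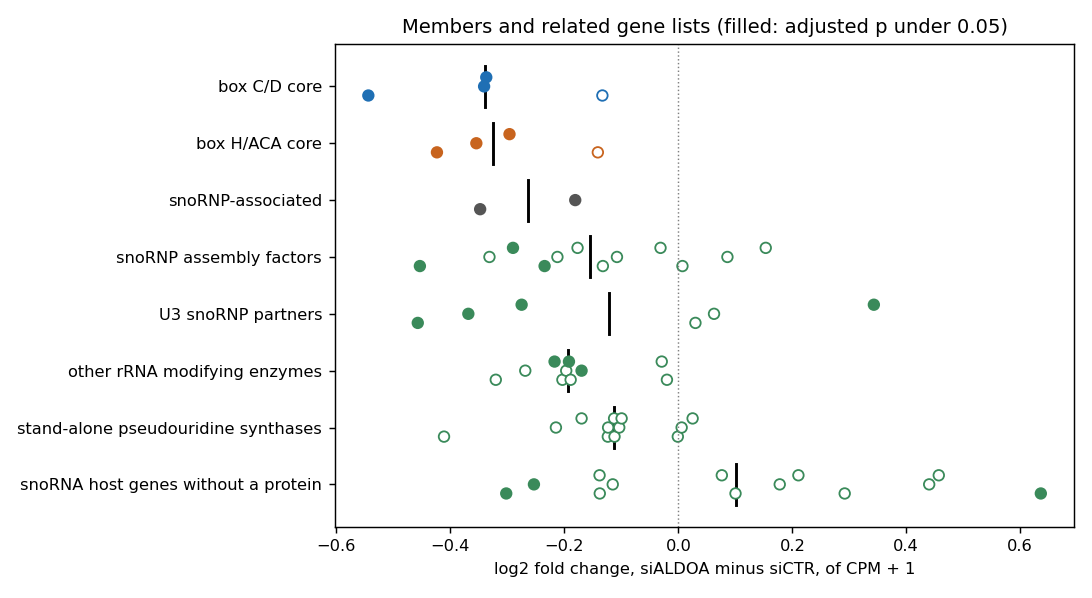
Log2 fold change of CPM + 1, siALDOA minus siCTR (horizontal axis), of the members by class and of the genes of 5 related lists, with the median of each list as a black line and filled points for an adjusted p under 0.05. The medians of the core classes are -0.34 and -0.33, that of the associated factors is -0.26, and those of the 5 related lists lie between -0.19 and 0.10.

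Relatives of the members by fold that serve other complexes were also listed. Prpf31, a splicing factor related to Nop56 and Nop58, changed by -0.09, Rpp38 of RNase P, which shares the fold of Nhp2, by -0.13, and the selenoprotein factor Secisbp2 of the same fold by -0.22. All 3 had overlapping groups and did not pass (adjusted p = 0.264 to 0.716, limma), at levels of 16.2 to 31.5 CPM.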

How the data were processed

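RNA-sequencing of 3 siCTR and 3 siALDOA libraries of NIH/3T3 cells was analysed. The authors aligned reads to mm10 with Bowtie2 2.2.7, drew the same number of reads from each library, counted these per gene with GenomicAlignments and deposited CPM scaled to an effective library size. The study states a filter on genes with fewer than 12 reads, but 1834 genes of the table held fewer over the 6 libraries. A further deposited table holds the authors' own comparison and was not used. The annotation release, strand setting and treatment of multi-mapping reads are not given in the sources used here.

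Reads were recovered by dividing each CPM by the smallest non-zero CPM of its library, and 100% of values came out whole (relative tolerance 1e-06). TMM scaling of these reads returned the deposited scaling. Groups were compared over all 18001 genes by limma 3.58.1 in R 4.3.3, using log2(CPM + 1), a trend of variance on mean and two-sided Benjamini-Hochberg adjusted p-values. edgeR 4.0.16 (quasi-likelihood) and DESeq2 1.42.0 were run on the recovered reads. Ratios were tested by exact permutation (SciPy), and similar transcripts were searched with blastn 2.17.0. Of the gene identifiers, 17932 matched the annotation. The tests were checked on simulated data. Reads carry no molecular identifiers, so their number describes counting error only.

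The members, gene lists and tests were chosen with earlier results of these data known. Of each related list, the text names up to 2 genes at either end of the log2 changes, if called and without overlap of the groups. Alternatives were a pseudocount of 0.1, a filter on low genes, other scalings, no trend, the replicate number as a block, other tools, libraries left out, other class definitions and, added after seeing the data, pseudogene reads summed with their parents.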

Additional observations from a re-analysis of the deposited data

How the results depend on the processing

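The filter, TMM scaling, the missing trend and the block leave a fitted change as it is. Under the alternatives that can move it, 13 for most members and 14 for Nop56 and Nhp2l1, each member stayed below 0. Nop56, Nop58 and Dkc1 kept an adjusted p under 0.05 in all 18 alternatives, and Fbl and Nop10 passed in none. The number of members called lower, 8, became 4 without the mean-variance trend and lay between 3 and 8 when a library or a replicate number was left out, and 0 were called higher throughout. Of the related genes, the 11 called lower became 2 without the trend, 6 with DESeq2 and 2 to 8 with libraries left out, and the 2 called higher became 0 to 3. With libraries left out, the class difference stayed between -0.05 and -0.02, the log2 ratio of Nop56 to Nop58 changed by -0.30 to -0.15 and that of Fbl to Dkc1 by 0.21 to 0.38. The ratio of Nhp2 to Nhp2l1 turned from -0.0116 to 0.0134 with pseudogene reads added and ranged from -0.104 to 0.0465 with libraries left out. The log2 change of Rpl18 ranged from -0.0213 to 0.0543 with libraries left out, and it was below 0 without siCTR replicate 1 (-0.00598) or siALDOA replicate 3. Fewer libraries lower the number of genes that can pass, and the cause of the other changes was not tested.

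Same-numbered libraries of the groups shared deviations with correlations of 0.040, 0.040 and 0.207 over 8271 genes, and the main fit did not take the numbers as pairs. The study states that ERCC spike-in RNA was added at lysis in replicate 1, but only to the extracted RNA in replicates 2 and 3. A replicate number can thus mark shared handling of both groups, and the highest correlation, 0.207, was that of replicate 3. With the replicate number as a block, 7 members were called lower (Naf1 was lost, adjusted p = 0.057), with 9 related genes lower and 2 higher. Only the libraries numbered 3 correlated best with their own number. siALDOA replicate 1 correlated most with siCTR replicate 2 (0.125), and siALDOA replicate 2 with siCTR replicate 1 (0.053). The ERCC step set replicate 1 apart, whereas the read counts set replicate 3 apart.

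Precision is limited in the members with few reads, called or not. Fbl had 176 to 215 reads per library and Nop10 259 to 305, while Gar1, which was called lower, had 239 to 327. The SE of the log2 change (limma) was 0.080 in Fbl, 0.070 in Nop10 and 0.069 in Gar1.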
